A study of Arabidopsis thaliana with 12 samples.

Results

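The 3 genes described here act early in chlorophyll and heme synthesis, near the entry to the chlorophyll branch, and in carotenoid synthesis: HEMA3 (AT2G31250), CHLM (AT4G25080) and Z-ISO (AT1G10830). They were taken as the features that the platform annotation assigns to exactly 1 of these genes, and each gene had 1 such feature, so that 3 features of 3439 in the table are described. The series compared wild-type (WT) Arabidopsis thaliana with the pete1 pete2 double mutant. Both were of ecotype Columbia 0 and both were grown on MS media, a mineral growth medium. In the mutant both forms of plastocyanin are missing, a small copper protein in the lumen of the thylakoid that passes electrons to photosystem I. The labels give neither the age of the plants nor the organ from which total RNA was taken.

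Tetrapyrroles and carotenoids are the pigments of the thylakoid membrane, and their synthesis in the plastid is run by enzymes encoded in the nucleus. Tetrapyrrole synthesis starts from glutamate bound to a transfer RNA, passes through 5-aminolevulinic acid and protoporphyrin, and divides there into a heme branch and a magnesium branch that leads to chlorophyll. Carotenoid synthesis starts from phytoene, which is desaturated and isomerised in steps to lycopene and then cyclised to the carotenes and xanthophylls. Free chlorophyll precursors are photosensitisers, whereas carotenoids protect the photosynthetic membrane from excited chlorophyll.

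Each genotype had 6 deposited columns, and columns 1 and 2, 3 and 4, and 5 and 6 of a genotype agreed far more closely than any other columns. Over features, the median of the absolute log2 difference ran from 0.0957 to 0.134 within these pairs and from 0.2996 to 0.5403 between columns of different pairs. The mean of a pair on the log2 scale served as 1 replicate, so that each genotype had 3. Nothing in the labels says that these replicates are separate plants, and the spread that the p-values rest on may be technical. Values are intensities in relative units after quantile normalisation unless they are called deposited. Column medians of the deposited intensity lay between 0.341 and 0.659, and column totals between 3493 and 3778. Of 8 marker genes of green tissue, 4 had a feature of their own (PSBW, PSAN, SBPASE and PRK). Their mean normalised intensities were 32.4 for PSBW, 2.47 for PSAN, 0.908 for SBPASE and 0.536 for PRK in WT. In the mutant they were 44.1, 2.67, 0.649 and 0.565, in the same order. None of 6 markers of root or non-green tissue had one, so the share of such tissue was not tested. In RNA from whole samples, fewer cells of a type and less RNA per cell cannot be told apart. There were 0 features assigned to PETE1 or PETE2, alone or with other genes, so the genotype labels have no check from the disrupted genes. Precision is limited throughout by the number of arrays.

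None of the 3 genes passed the test between the genotypes. HEMA3 was 1.25 times the WT level in the mutant, with a 95% interval from 0.918 to 1.72. CHLM was 0.923 times the WT level, with an interval from 0.541 to 1.58. Z-ISO was 0.642 times the WT level, with an interval from 0.349 to 1.18. With limma (lmFit and eBayes, two-sided) and Benjamini-Hochberg adjustment over all 3438 tested features at a threshold of 0.05, 0 of the 3 genes were called. Over all features 1 was called, or 0.0291%, and it was higher in the mutant. An unadjusted p under 0.05 was reached by 0 of the 3 genes and by 251 features, or 7.3%. The pair values of the genotypes did not overlap for 0 of the 3 genes and for 341 features, or 9.92%. The median log2 fold change of the 3 genes was -0.11, beside -0.011 over all tested features. That median is the value of CHLM alone, with HEMA3 at 0.33 and Z-ISO at -0.64, so the genes had no common direction.

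**Figure D1:**
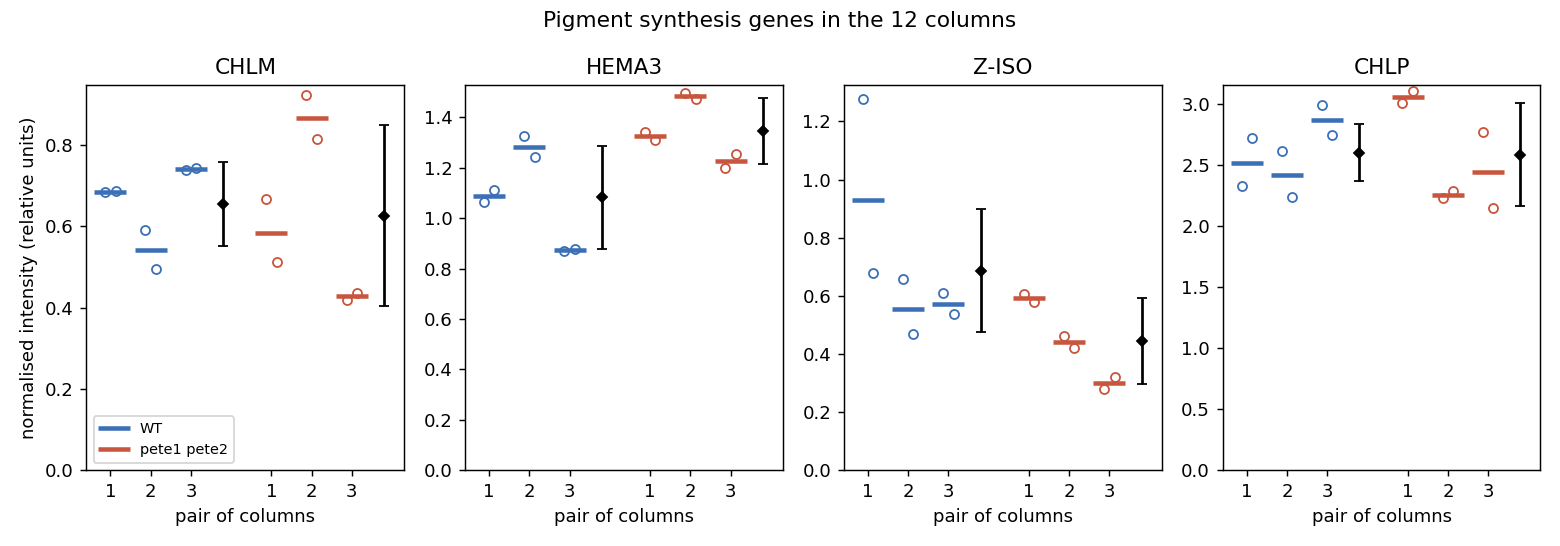
Normalised intensity in relative units on the vertical axis for CHLM, HEMA3, Z-ISO and CHLP. Open circles are the 12 columns, horizontal bars the mean of each pair (taken on the log2 scale), black diamonds and lines the mean and SD of 3 pairs, in blue for WT and red for pete1 pete2. The pairs of the genotypes overlap in every panel, and the 2 columns of WT pair 1 lie far apart for Z-ISO, at 1.28 and 0.679.

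HEMA3 is a member of the small family of glutamyl-tRNA reductases, which make the first committed step of tetrapyrrole synthesis and are a main control point of the pathway. The share of HEMA3 itself in this role of the family was not measured here. Its deposited intensity ran from 0.882 to 1.34 in the WT columns, with a median of 1.25, and from 1.02 to 1.55 in the mutant columns, with a median of 1.17. After normalisation the WT pairs measured 1.09, 1.28 and 0.874, and the mutant pairs 1.33, 1.48 and 1.22. Mutant pairs 1 and 2 lay above all WT pairs, whereas mutant pair 3 lay under WT pair 2, so the genotypes overlapped.

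The means of HEMA3 were 1.08 ± 0.205 (SD, n = 3) for WT and 1.35 ± 0.131 (SD, n = 3) for the mutant. The log2 fold change was 0.33 (SE 0.18, limma adjusted p = 0.909), and the 95% interval ran from -0.12 to 0.78. An exact permutation test of the pair values (two-sided, n = 3 per genotype) gave p = 0.2, where 3 against 3 cannot go below 0.1. The difference thus did not pass either test. HEMA3 was the steadiest of the 3 genes: its pooled SD between pairs was 0.22 on the log2 scale, and 19.1% of all tested features had an SD as small or smaller. The columns of a pair differed by at most 0.0942 (log2). The log2 fold change was 0.18 without WT columns 5 and 6, which were the dimmest for HEMA3, and 0.46 without WT columns 3 and 4. Whether the probe separates HEMA3 from its relatives HEMA1 and HEMA2 was not tested, since the probe sequence was not used here and neither relative had a feature of its own.

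CHLM encodes the methyltransferase that adds a methyl group to magnesium protoporphyrin, the step after magnesium chelatase in the chlorophyll branch. Its deposited intensity ran from 0.479 to 0.839 in the WT columns, with a median of 0.751, and from 0.278 to 1.06 in the mutant columns, with a median of 0.472. After normalisation the WT pairs measured 0.685, 0.541 and 0.741, and the mutant pairs 0.584, 0.867 and 0.427. The mutant thus held both the brightest and the dimmest pair, with all 3 WT pairs between them.

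The means of CHLM were 0.656 ± 0.103 (SD, n = 3) for WT and 0.626 ± 0.223 (SD, n = 3) for the mutant. The log2 fold change was -0.11 (SE 0.30, limma adjusted p = 1, exact permutation p = 0.7, two-sided). The SD between pairs was 0.24 in WT and 0.51 in the mutant on the log2 scale, and this difference in spread was not tested. The sign of the fold change rested on single pairs: it was 0.12 without mutant columns 5 and 6 and -0.40 without mutant columns 3 and 4.

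Deposited CHLM values followed the brightness of their columns. Ordered by deposited intensity, the 6 pairs of columns stood in the same order as by the median of their columns. Of the 3438 tested features 172 had that order, CHLM among them. CHLM measured 0.282 in mutant pair 3, which had the lowest column median (0.342), and 1.02 in mutant pair 2, which had the highest (0.659). Divided by the column median, CHLM still ranged from 0.826 in mutant pair 3 to 1.55 in mutant pair 2, with the WT pairs at 1.33, 1.07 and 1.44. HEMA3 did not follow that order: its lowest deposited pair was WT pair 3, at 0.889, and its ratio to the column median was highest in mutant pair 3, at 3.08, where the median was lowest. Z-ISO followed the order in part. Its deposited value was lowest in mutant pair 3, at 0.179, but highest in WT pair 1, at 1.09, with mutant pair 2 at 0.577. Divided by the column median, Z-ISO ranged from 0.523 in mutant pair 3 to 1.75 in WT pair 1. The part of array brightness in the CHLM and Z-ISO values beyond these ratios was not tested.

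**Figure D2:**
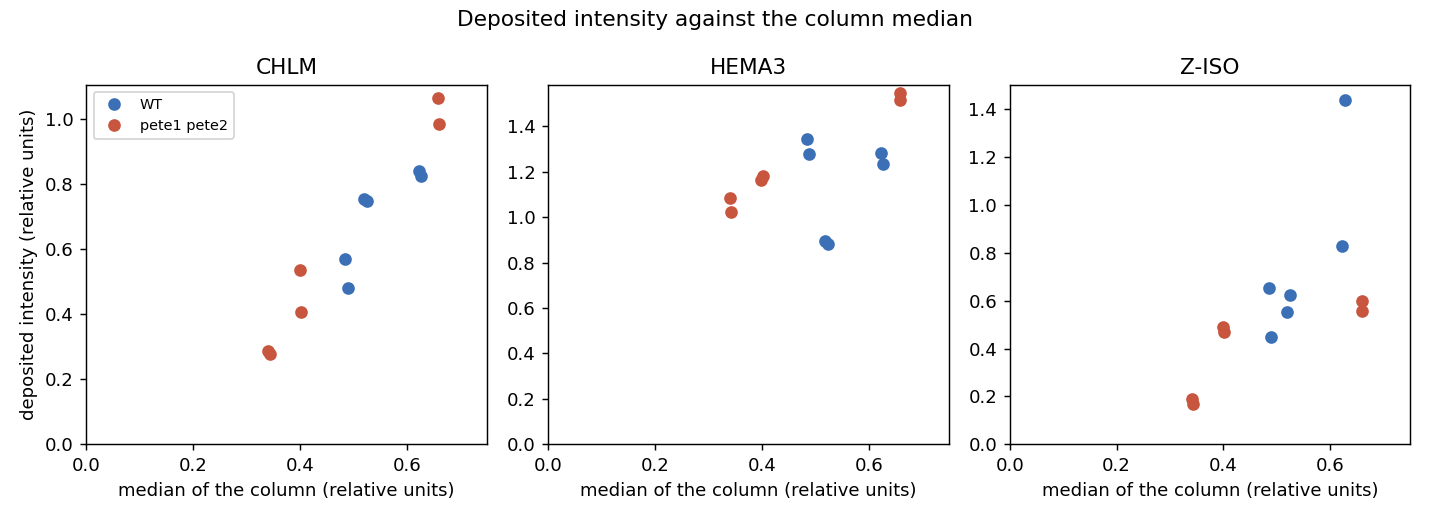
Deposited intensity of CHLM, HEMA3 and Z-ISO in each of the 12 columns (vertical axes, relative units) against the median of that column (horizontal axes, relative units), in blue for WT and red for pete1 pete2. CHLM rises with the column median from 0.278 to 1.06, while HEMA3 lies between 0.882 and 1.55 with WT columns 5 and 6 lowest. Z-ISO is lowest in mutant columns 5 and 6, at 0.167 and 0.191, and highest in WT column 1, at 1.44.

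Z-ISO encodes the isomerase of zeta-carotene, which acts between the desaturases PDS and ZDS on the way to lycopene and is needed above all where light does not isomerise the intermediate. Its deposited intensity ran from 0.449 to 1.44 in the WT columns, with a median of 0.640, and from 0.167 to 0.599 in the mutant columns, with a median of 0.479. After normalisation the WT pairs measured 0.931, 0.555 and 0.574, and the mutant pairs 0.593, 0.441 and 0.2996. Mutant pairs 2 and 3 lay under all WT pairs, and mutant pair 1 lay above WT pairs 2 and 3.

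The means of Z-ISO were 0.686 ± 0.212 (SD, n = 3) for WT and 0.444 ± 0.147 (SD, n = 3) for the mutant. The log2 fold change was -0.64 (SE 0.34, limma adjusted p = 0.909), with a 95% interval from -1.52 to 0.24, and the exact permutation test (two-sided, n = 3 per genotype) gave p = 0.3. Of all tested features, 4.16% had a fold change as low or lower, but the spread of Z-ISO was also wide, with a pooled SD of 0.46 (log2). WT columns 1 and 2, which otherwise agreed closely, measured 1.28 and 0.679, a difference of 0.91 (log2) that was at least as large as that of 97.6% of features in that pair. WT columns 3 and 4 differed by 0.50, and the mutant pairs by at most 0.19. Without WT column 1 the log2 fold change was -0.49, without WT columns 1 and 2 it was -0.40, and without mutant columns 5 and 6 it was -0.37. The direction stayed negative in all 31 alternatives run, with values from -0.94 to -0.304, and the gene passed in none of them. Alternatives that changed only the dim-feature filter, the variance or the blocks could not move the fold change, so their sign adds nothing.

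**Figure D3:**
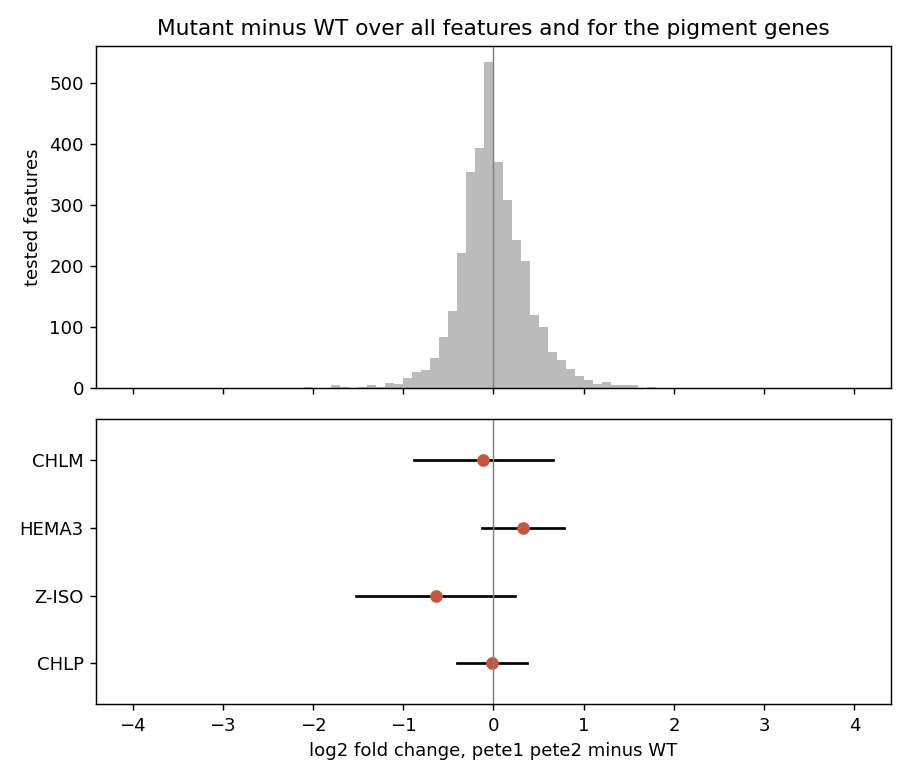
Upper panel, the number of tested features (vertical axis) by log2 fold change of pete1 pete2 minus WT (horizontal axis). Lower panel, the log2 fold change (points) and its 95% interval (lines) for the 3 genes and CHLP, all of which include 0, with Z-ISO lowest at -0.64 and HEMA3 highest at 0.33.

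Spot brightness placed the 3 features in the middle to upper part of the arrays, although brightness of different probes does not give the order of their transcripts. By mean log2 intensity over the 6 pairs, the HEMA3 feature was at least as bright as 84.0% of features, CHLM as 61.02% and Z-ISO as 53.9%. Whether the signal of the HEMA3 feature comes from HEMA3 alone or also from HEMA1 or HEMA2 was not tested. None of the 3 was listed at 0 in any column, and all lay above the floor of 0.0225 that was set for low values. The features at numbers close to theirs in the table, within 5 on either side, had median log2 fold changes of -0.14 around CHLM (4 features), -0.076 around HEMA3 (4 features) and -0.029 around Z-ISO (7 features). When the deviations of these neighbours were subtracted in every column, the log2 fold change of Z-ISO was -0.72 and that of HEMA3 0.39, while that of CHLM turned to 0.10, and none passed.

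Over the 6 pairs, and as a description only, Pearson's r of the normalised log2 intensity was 0.44 between CHLM and Z-ISO, -0.077 between CHLM and HEMA3, and -0.34 between HEMA3 and Z-ISO. Mutant pair 3 was the dimmest pair for CHLM and Z-ISO, and for HEMA3 it was the dimmest of the mutant pairs. Among 597 other genes that had a feature of their own above the floor in all columns, those most like CHLM over the 6 pairs were AT3G27550 (r = 0.985), AT2G28200 (0.978) and AT1G22040 (0.974), and 29 genes had an r over 0.9. Those most like HEMA3 were AT2G44530 (r = 0.953), AT4G22370 (0.949) and AT1G17160 (0.944), and 3 genes in all passed 0.9. Those most like Z-ISO were AT2G31920 (r = 0.968), AT2G23160 (0.926) and AT3G52550 (0.917), with 5 genes over 0.9. With 6 values per gene that share arrays, and 597 candidates, high correlations arise easily, and these names describe the arrays only. AT2G44530 had a log2 fold change of 1.19 and AT3G52550 one of -0.70, and neither passed (limma adjusted p = 0.587 and 0.845).

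Of 88 genes listed for tetrapyrrole and carotenoid synthesis, their regulation and breakdown and the supply of prenyl units, 4 had a feature of their own: the 3 genes and CHLP (AT1G74470). A further 5 of the 88 lay on 3 features shared with other genes and were given no value, and 79 were not assigned to a feature. Of the lists, the common steps of tetrapyrrole synthesis had 1 measured gene of 16, the chlorophyll branch 2 of 15 and carotenoid synthesis 1 of 17. The heme and bilin branch (8 genes), the regulators (3), chlorophyll breakdown (10), the prenyl supply (10) and carotenoid cleavage (9) had 0. Of the 4 measured genes, 0 passed in either direction, beside 0.0291% of all features.

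CHLP, the geranylgeranyl reductase that makes the phytyl chain of chlorophyll, measured 2.52, 2.42 and 2.87 in the WT pairs and 3.06, 2.26 and 2.44 in the mutant pairs. As for CHLM, the mutant held the brightest and the dimmest pair. Its log2 fold change was -0.017 (SE 0.15, limma adjusted p = 1), with a 95% interval from -0.41 to 0.37, and became 0.22 when each column was centred on its median. Among the deposited mutant pairs, pair 2 was the lowest for CHLP (2.06) and the highest for CHLM (1.02).

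These scalings multiply all values of a column by the same factor, so they shift the log2 fold changes of all features above the floor alike. The log2 fold changes as deposited were -0.43 for CHLM, 0.12 for HEMA3 and -0.94 for Z-ISO, where the median of all features was -0.27. With scaling to the total they were -0.41, 0.14 and -0.92, beside a median of -0.26. With centring on the median they were -0.15, 0.39 and -0.67, beside a median of -0.0085. As deposited, the SE was 0.53 for CHLM, 0.23 for HEMA3 and 0.56 for Z-ISO, and none passed (limma adjusted p = 0.840, 0.885 and 0.813). Relative to the median of all features, Z-ISO was low and HEMA3 high as deposited, and CHLM was low by less than its SE. That these places stayed the same under the other scalings follows from the arithmetic and adds no evidence.

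**Figure D4:**
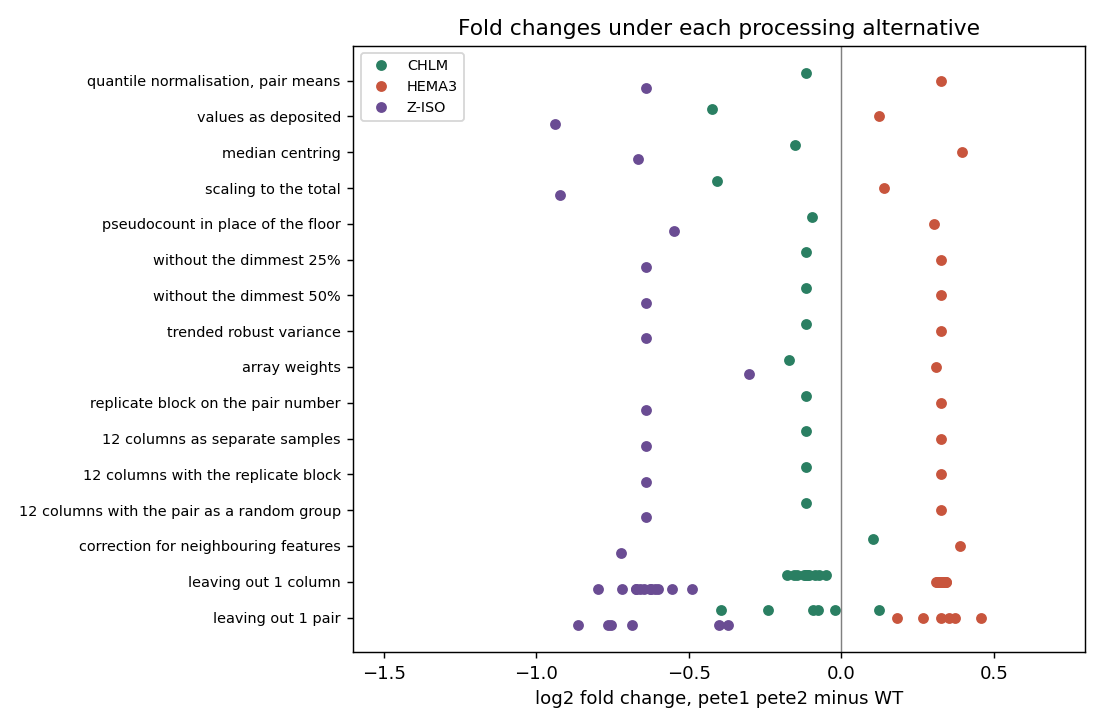
Log2 fold change of pete1 pete2 minus WT (horizontal axis) for CHLM, HEMA3 and Z-ISO under each processing alternative (rows), with 1 point per column or pair left out in the last 2 rows. HEMA3 lies above 0 and Z-ISO under 0 in every row, while CHLM crosses 0 with the correction for neighbouring features (0.10) and without mutant columns 5 and 6 (0.12). Rows that changed only the dim-feature filter, the variance or the blocks, or took columns for pairs, could not move a point.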

How the data were processed

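The authors deposited linear intensity values for 3439 features in 12 columns, with 6 columns per genotype. What the intensities were divided by, the scanner, the software and a genome build are not given in the sources used here. Samples were grouped by their titles, per the labels. The columns were quantile normalised, low values were set to a floor of 0.0225 (the deposited positive values' 1st percentile) and log2 was applied. Columns of a pair were averaged, since all 12 columns had their partner as the nearest column. The genotypes were compared with limma (version 3.58.1, R 4.3.3), adjusted over 3438 features (1 gene had more than 1 feature, which were averaged); the code was tested on simulated data with known changes. Genes came from the platform annotation, where 692 features had 1 gene, 870 several and 1877 none, and 690 of the 692 matched the TAIR10.1 gene table, used for names only. The named genes were the 3 genes, the other measured genes of the 88 listed, and the 3 most alike by Pearson's r. Members, lists and settings were chosen with earlier results of these data known. The 31 alternatives changed the scaling, floor, dim-feature filter, variance, weights, blocks, neighbours, or left out a column or pair.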

Additional observations from a re-analysis of the deposited data

Results flagged for a closer look

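The normalised intensity of Z-ISO in WT column 1, 1.28, lay far from the other 5 WT columns, which ran from 0.467 to 0.679. Its gap to the nearest of them was 0.738 of the whole range of the WT columns, above Dixon's critical value at the 95% level for 6 samples. Chance gives such a gap in about 1 in 20 groups, and the 4 measured pigment genes gave 8 groups, of which no other passed. The columns of a pair are near-duplicates, so the 6 columns are not independent samples. Without WT column 1 the log2 fold change of Z-ISO was -0.49, and the gene did not pass limma's test with or without that column.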

How the results depend on the processing

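Background signal was not given, so what it limits in dim features could not be assessed. The cause of the shifts below was not tested. Of 124 values of the 3 genes and CHLP under the alternatives, 112 kept their direction and their side of limma's threshold, 11 changed sign and 1 passed. The correction for neighbouring features turned CHLM to 0.10, and leaving out a column or pair gave from -0.40 to 0.12. CHLP was 0.22 with median centring, 0.15 with array weights, and from -0.14 to 0.074 with a column or pair left out. HEMA3 ranged there from 0.18 to 0.46 and Z-ISO from -0.86 to -0.37, with no change of sign. With array weights Z-ISO was -0.304.

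The replicate numbers of the titles were tested as a block. Same-numbered pairs of the genotypes deviated together with r of 0.32, 0.00056 and 0.39. The highest r of the same WT pairs with mutant pairs of another number was 0.165, 0.00525 and -0.164. The same number thus gave the highest r for pairs 1 and 3 but not for pair 2. Whether the numbers pair the samples was not settled by this, and the analysis reported does not use them. With the pair number as a block, 0 features were higher. In that fit Z-ISO had an SE of 0.168 and an unadjusted limma p of 0.0314 (adjusted 0.638). For HEMA3 the SE was 0.113 and the unadjusted limma p 0.0615 (adjusted 0.689), and for CHLM 0.361 and 0.771 (adjusted 0.997). Within same-numbered pairs the mutant was higher in 3 for HEMA3, 1 for CHLM and 0 for Z-ISO. How many of all features had 3 or 0 was not counted, so these counts show nothing particular to the genes. With the replicate block on 12 columns, HEMA3 (0.33) passed at a limma adjusted p of 0.0354, though that fit counts the near-duplicate columns as independent, and 156 features were higher and 93 lower. The 12 columns as separate samples gave 149 higher and 75 lower, and the pair as a random group 15 and 4.

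The count of higher features, 1 in the analysis reported, was 0 as deposited, with median centring and with scaling to the total, and from 0 to 1 with a column or pair left out (0 without any pair other than WT columns 3 and 4). The count of lower features, 0, was 1 with array weights, 2 with the correction for neighbours, and from 0 to 1 with a column or pair left out.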
